A study of Bactrocera oleae with 8 samples.

Results

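A group of 113 contigs of the olive fruit fly *Bactrocera oleae* was described here, chosen for a mean level that was low in larvae fed on black olives and close between larvae fed on green olives and on artificial diet. A contig is a transcript sequence assembled from sequencing reads, and the array carried probes for 20516 of them. The members were chosen on the log ratios that the scanner software deposited, averaged over the spots of a contig and the 4 arrays of a comparison and put on the log2 scale. A member had a green over black ratio of at least 1, a green over diet ratio between -0.5 and 0.5, a green over diet ratio lower than the green over black ratio by at least 1, and a green olive signal well above background in at least 50% of its spots. These limits were met by 118 contigs. The rule also took out 11 named contigs, mostly digestive enzymes, of which 5 had met the limits.

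The larvae were wild 2nd-instar *B. oleae*, with no genetic change in any group, and each extract pooled 20 larvae. Green (unripe) olives of the variety Kalamon were collected from an orchard in Crete in September, and black (ripe) olives came from the same orchard in January. The larvae on artificial diet, a mixture with olive oil, yeast, soy hydrolysate and sugar, were offspring of flies reared in the laboratory. Feeding regime, season and rearing therefore cannot be told apart. On each of 8 two-colour arrays the Cy5 channel held green olive larvae, and the Cy3 channel held black olive larvae on 4 arrays and diet larvae on the other 4. The dyes were never swapped, so any difference between the dyes is part of the green olive comparisons. Black olive and diet larvae were never on the same array and were compared through the green olive channel. Replicate numbers 1 to 4 are given to the arrays of each comparison in the labels, and nothing in them says whether the green olive pools of the arrays with the black olive larvae and of those with the diet larvae were separate extracts. The methods of the study describe 4 green olive replicates, put against black olive or diet larvae. P-values measure the spread between these arrays only.

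Among the members with a description were enzymes of myo-inositol breakdown, proteins of the cuticle, carriers of small fatty molecules, secreted salivary proteins and regulators of transcription. Myo-inositol is a sugar alcohol found in plants and in membrane lipids, and myo-inositol oxygenase opens its ring to give glucuronate, the first step of its breakdown in animals. The cuticle of a fly larva is built of chitin and of chitin-binding proteins, is made anew at each moult, and is coloured and hardened by enzymes and proteins of the yellow family. Lipocalins such as apolipoprotein D are secreted proteins with a pocket that holds small hydrophobic molecules. Whole larvae were used, so less RNA per cell and fewer cells of a type cannot be told apart in any of the values below.

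Of the 113 members, 38 had a description in the study's lists and 75 had none. Those lists cover contigs that were called in the study, so the described members are not a random share of the whole. The gene lists below were drawn from the same descriptions. How many of their contigs were called, or were members, therefore follows largely from that choice. Most members (89 of 113) were measured by 3 probes. The names covered 104 different contigs, since 9 contigs had probes for both strands among the members. The reverse strand was named in 27.4% of the members and in 23.5% of the 12003 contigs that passed the same limit on the green olive signal and had a value on every array.

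The values below are log2 ratios and log2 intensities after background correction and normalization with limma, not the scanner's own ratios. On this scale the mean green over black ratio of the members lay between 0.34 and 4.11 with a median of 1.23, whereas the median of the detected contigs was 0.02. The mean green over diet ratio lay between -0.55 and 0.52 with a median of 0.05, and the median of the detected contigs was 0.00. In 36 members the normalized green over black ratio was below 1, although the scanner's ratio was not. With the normalized ratios in place of the scanner's, 74 contigs would have met the rule, of which 66 were among the members. Because the rule used all comparisons between the regimes, these values describe the choice and were not tested. In the limma fit across all contigs, 64 members were called higher in green than in black olives (Benjamini-Hochberg adjusted p under 0.05 and log2 fold change over 1), beside 1.74% of all contigs. For black olives against artificial diet 40 members were called lower in black olives, beside 0.609% of all contigs. That count was 24 with the slide row in the model, 25 and 24 without diet replicate 1 or 3, 4 by treat and 4 with the replicate number as a block. The block joins same-numbered arrays, whose ratios did not rise and fall together apart from replicate 4, so it does not model shared green olive pools. For green olives against artificial diet, where 1.05% of all contigs were called, limma and its treat test against the threshold both called 0 members, and 17 members had an unadjusted p under 0.05.

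**Figure D1:**
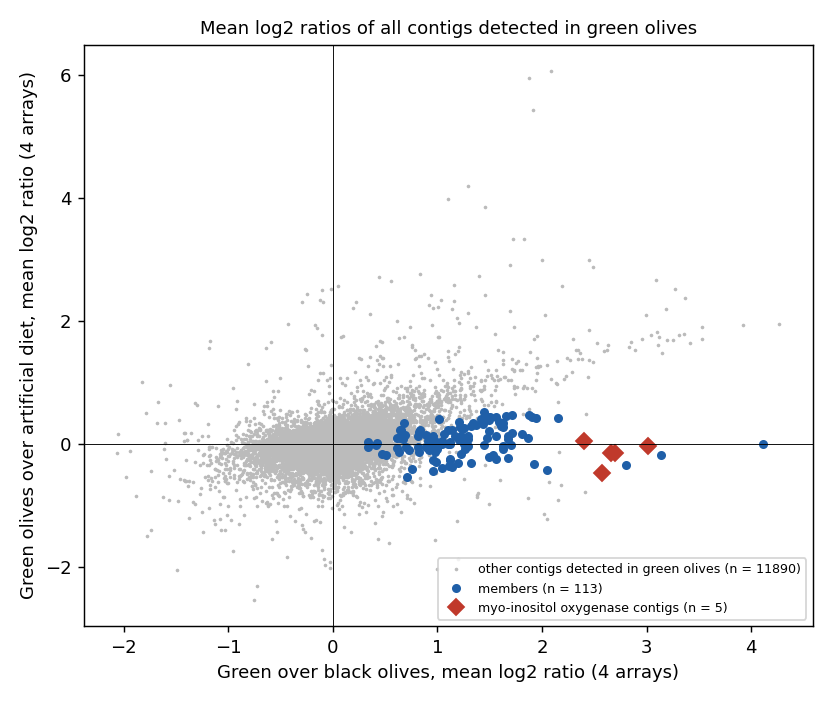
Mean log2 ratio of green over black olives (x axis) against green olives over artificial diet (y axis) for the contigs detected in green olive larvae, each point a contig and each axis a mean of 4 arrays. The 113 members lie along the zero of the y axis from 0.34 to 4.11 on the x axis, and the 5 myo-inositol oxygenase contigs lie between 2.40 and 3.01.

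The rule fixed that the black olive mean of a member was low, and the channels give the level in each pool. The median log2 intensity of the members was 9.67, 8.65, 9.08 and 9.12 in the 4 black olive pools and 10.19, 10.68, 10.59 and 10.19 in the 4 diet pools, all in Cy3. In the green olive channel it was between 10.27 and 10.46 on the arrays with black olive larvae and between 10.30 and 10.43 on those with diet larvae. By this median black pool 2 was the lowest and black pool 1 the highest of the black olive pools. The diet over black difference in mean Cy3 level had a median of 1.13 and went from 0.24 to 4.03. In 78 members all 4 black olive levels were below all 4 diet levels, beside 10.2% of all contigs, and in 72 the green over black ratios of all 4 arrays were above all 4 green over diet ratios, beside 7.91%. Here and below, a black olive signal counts as above background on an array where at least 1 spot of the contig was well above it. This is a looser limit than that of the rule on the green olive signal. By this count the black olive signal was above background on all 4 arrays in 90 members, on some of them in 22, and on none in 1, contig07074. For that contig the green olive level was at least 1.49-fold and the diet level at least 1.18-fold the black olive level, taking for each array the lowest signal well above background, or the contig's own where that was higher, as the level in black olives.

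The widest gap was that of contig04551, which has no description. Its green over black log2 ratios were 2.97, 5.14, 5.01 and 3.30, a mean of 4.11 ± 1.13 (SD, n = 4) or 17.2-fold, and its green over diet ratios were -0.19, 0.20, -0.38 and 0.35. Its log2 level was 12.52, 9.98, 10.16 and 11.85 in the black olive pools and 15.20, 14.91, 15.75 and 14.76 in the diet pools. The groups did not overlap, and black pools 2 and 3 were lower than pools 1 and 4. Probes for the opposite strand of this contig gave a like order at a smaller ratio. Their green over black ratios were 2.29, 3.90, 3.80 and 2.56, and those over the diet were -0.14, 0.04, -0.61 and -0.01. Of the other undescribed members with a high ratio, contig13154 is a single probe with green over black ratios of 2.97, 3.37, 2.82 and 2.04 and green over diet ratios of -0.20, -0.72, -0.50 and 0.06. The reverse strand of contig11957 was more uneven, at 0.39, 2.44, 3.71 and 1.14 over black olives and -0.40, 0.14, -1.31 and 0.24 over the diet. In contig00304 the ratios over black olives, -0.91, 3.61, 1.64 and 0.47, overlapped those over the diet, 0.77, -1.83, 0.28 and -0.50, and its black olive signal was above background on 2 arrays.

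All 5 contigs described as myo-inositol oxygenase were members, though an uncalled contig of this enzyme would have carried no description. Their black olive level was below the diet level in every pool. All 5 were called in both comparisons with black olives, which describes the choice as well. For black olives against the diet treat called 3 of them, and limma called 0 with the replicate number as a block, where all 5 had an unadjusted p under 0.05. As said above, this block does not model shared green olive pools. In contig08383 the green over black log2 ratios were 3.12, 3.42, 2.76 and 2.74 (mean 3.01 ± 0.32, SD, n = 4, or 8.06-fold), and the green over diet ratios were -0.26, -0.34, -0.18 and 0.61. Its log2 level was 11.03, 10.37, 11.07 and 11.76 in the black olive pools against 14.02, 14.19, 14.43 and 13.91 in the diet pools. The lowest diet pool stood more than 2 log2 units above the highest black olive pool. The ratios of contig11233 were 2.93, 2.98, 2.72 and 2.18, and those of contig07712 were 2.93, 2.95, 2.71 and 2.07. These contigs kept nearly the same order of arrays, with the fourth lowest, and so did contig10911 at 2.97, 3.20, 2.53 and 1.60. Over the diet all 4 ratios of contig10911 were below 0, at -0.04, -0.83, -0.65 and -0.36, a mean of -0.47 near the edge of the rule. The remaining contig, contig09199, differed from them, with ratios of 2.69, 1.55, 3.37 and 1.98. Its level in the green olive channel was 12.79, 11.41, 13.36 and 12.72 on these arrays, and in the black olive pools 10.11, 9.86, 9.99 and 10.74. The low ratio on the second array thus went with a low green olive level and not with a high black olive level. Whether the 5 contigs are pieces of a single transcript or different genes was not tested.

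In the list of sugar and energy metabolism, 2 of 12 contigs were members, contig09264 (subunit 7a of cytochrome c oxidase, the last enzyme of the respiratory chain) and contig09183 (sugar transporter 1). Contig09264 had green over black ratios of 1.44, 1.96, 1.23 and 1.61 and green over diet ratios of -0.41, -0.79, -0.10 and 0.31. The ratios of contig09183 were 1.17, 2.28, 0.53 and 1.18 over black olives and 0.52, -0.39, -0.17 and 0.36 over the diet, so the lowest of the first nearly met the highest of the second. Of the other 10 contigs of the list, 7 were called higher in green than in black olives and 1 was called lower, and limma and treat called 0 of them in either comparison with the diet (8 had an unadjusted p under 0.05 for green olives against the diet and 3 for black olives against the diet). Of the 7, contig01821, contig06871 and contig06955 had no spot above background in the black olive pools, so the size of their difference is uncertain. The 7 also held contig02190, multiple inositol polyphosphate phosphatase, which takes phosphates from inositol phosphates. It was higher in green than in black olives by 1.08 (SE 0.08, adjusted p = 0.000343, limma), with 0.17 against the diet (adjusted p = 0.224), and lower in black olives than on the diet by a log2 difference of -0.90 (SE 0.12, adjusted p = 0.00847), just short of the threshold on the fold change. Its scanner ratios were 1.05 over black olives and 0.17 over the diet, so it missed the rule narrowly, and it is named here after its values were seen.

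**Figure D2:**
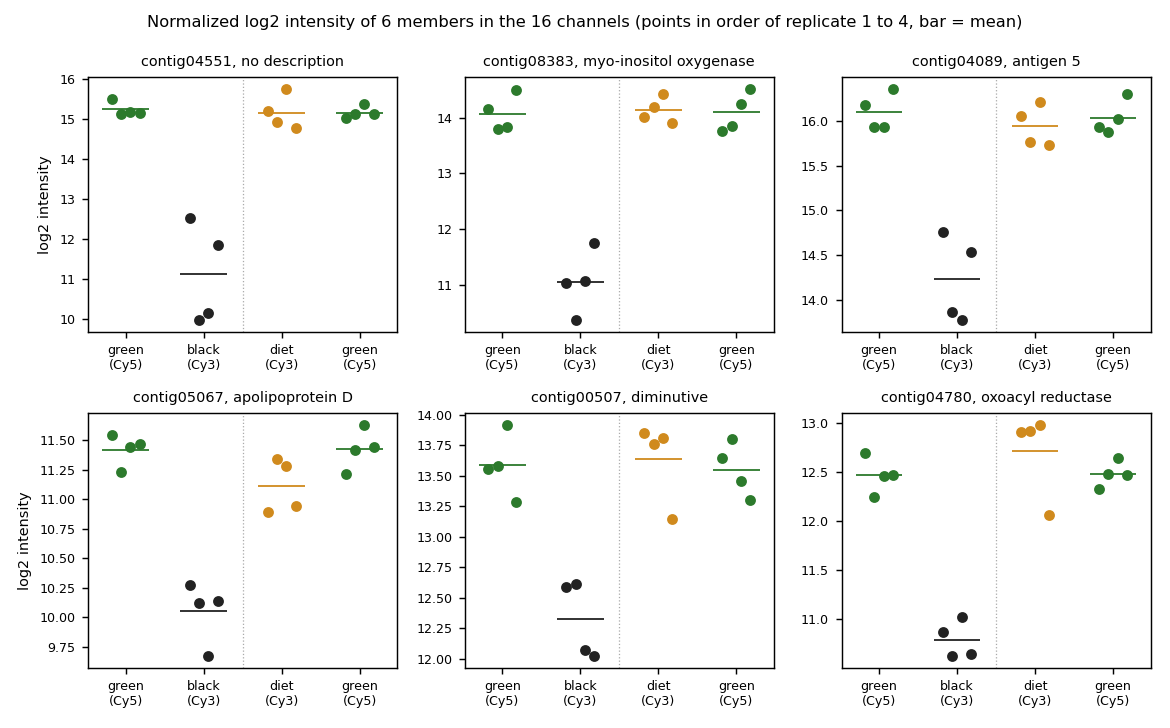
Normalized log2 intensity (y axis, a different range in each panel) of 6 members in the 16 channels, with points for replicates 1 to 4 from left to right and a bar for their mean; the dotted line separates the arrays with black olive larvae from those with diet larvae. In all 6 panels the 4 black olive points lie below every other point, as for contig08383, at 10.37 to 11.76 in black olives and 13.91 to 14.43 on the diet.

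Cuticle and pigment contigs made up the second group, with 4 members of 6 on the list. Contig11487, contig11595 and contig11298 all carry the description cuticular protein 65Au, a chitin-binding protein of the cuticle in *Drosophila*. Their green over black ratios moved in step: 1.51, 3.46, 0.85 and 0.98 in contig11487, 1.49, 3.35, 0.79 and 0.90 in contig11595, and 1.50, 3.34, 0.79 and 0.90 in contig11298. Over the diet they were 0.79, -0.82, 0.14 and -0.18 in contig11487. The black olive level of this contig was 12.50 in pool 2 and 14.15, 14.44 and 14.88 in the others, with 15.02 to 16.02 in the diet pools, so a single pool gave much of the mean. None of the 3 was called for black olives against artificial diet. Contig01210, described as yellow, which is needed for black pigment in *Drosophila*, had ratios of 1.19, 1.49, 2.10 and 1.87 over black olives and 0.36, 1.20, -0.29 and 0.52 over the diet. Its lowest black olive pool was pool 3, at 15.30, and its diet pool 2 (16.15) lay below its black pool 1 (16.22), so these groups overlapped. Neither of the other contigs on the list was a member. Contig12373, also described as yellow, was called higher in green than in black olives (1.05, SE 0.19, adjusted p = 0.00604, limma). Contig02330 (adult cuticle protein 1) went the other way, with a green over black difference of -0.79 (SE 0.18, adjusted p = 0.0172), short of the threshold on the fold change, and was called higher in black olives than on the diet (1.16, SE 0.26, adjusted p = 0.0463, limma).

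Lipocalins were measured by 4 contigs, of which 3 were members and the fourth, contig01235 (neural Lazarillo, a lipocalin of the nervous system in *Drosophila*), was called higher in green than in black olives (1.11, SE 0.16, adjusted p = 0.00271, limma) with 0.53 against the diet (adjusted p = 0.0699). In contig07071 the ratios over black olives were 1.06, 1.38, 3.18 and 1.62 and those over the diet 0.14, 1.09, -0.46 and -0.11. Contig07056 gave 1.18, 1.03, 2.28 and 1.30 over black olives and 0.24, 0.30, -0.47 and -0.15 over the diet. The third array was the highest in both. In contig05067, a second apolipoprotein D sequence, the ratios were closer together, at 1.27, 1.11, 1.77 and 1.33 over black olives and 0.32, 0.08, 0.35 and 0.50 over the diet. The black olive level of all 3 was lowest in pool 3, at 15.18 in contig07071, 13.72 in contig07056 and 9.67 in contig05067. The single probe of contig13671, which has no description and is named after its values were seen, was also highest on the third array, with 0.47, 1.30, 3.13 and 1.24.

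**Figure D3:**
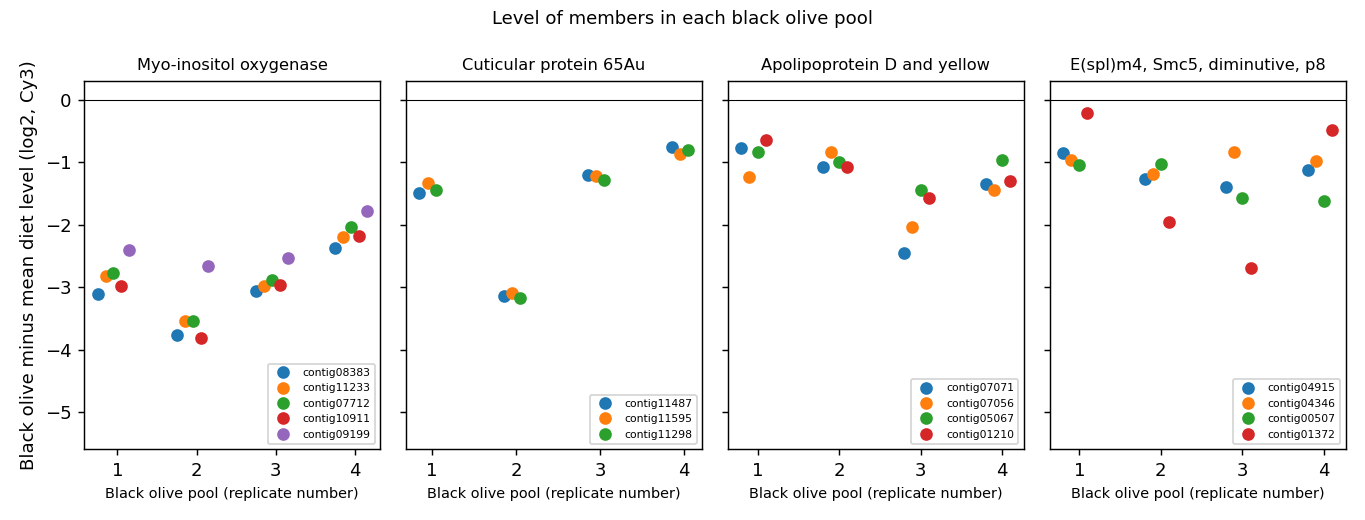
Log2 level of members in each black olive pool minus their mean level in the 4 diet pools (y axis, both in Cy3), with the replicate number of the pool on the x axis and a colour for each contig. The myo-inositol oxygenase contigs lie below zero in all 4 pools, the cuticular protein 65Au contigs lie lowest in pool 2, and the apolipoprotein D and yellow contigs lie lowest in pool 3.

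Secreted proteins of the antigen 5 family, known from insect saliva and venom, and salivary proteins gave 2 members of 7 contigs. Contig04089 (antigen 5) had ratios of 1.42, 2.07, 2.17 and 1.83 over black olives, 3.66-fold in the mean, and -0.12, 0.11, -0.19 and 0.57 over the diet. Contig06700 (salivary protein) had 1.72, 1.51, 1.05 and 1.95 over black olives and 0.68, 1.03, -0.55 and 0.58 over the diet. The ratios were apart in the first contig and nearly touched in the second, where diet pool 2 had a level of 10.80, below the 11.08, 11.21 and 10.82 of black pools 1 to 3. The other 5 contigs were all called higher in green than in black olives, and 1 of them, contig04218 (antigen 5-related 2), was also called lower in black olives than on the diet (-1.08, SE 0.18, adjusted p = 0.0195, limma).

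Of the 6 contigs listed under transcription, chromatin and DNA repair, 4 were members. Contig00507 is described as diminutive, the *Drosophila* Myc, a driver of cell growth. Its ratios were 0.97, 0.97, 1.84 and 1.27 over black olives and -0.20, 0.04, -0.35 and 0.15 over the diet, and its level was 12.02 to 12.61 in black olives and 13.15 to 13.85 on the diet. Contig04915, Enhancer of split m4, a gene that Notch signalling turns on in *Drosophila*, had ratios of 1.08, 1.35, 1.55 and 1.18 over black olives and 0.03, 0.03, -0.16 and -0.05 over the diet. Its 3 probes disagreed, with mean ratios over black olives from 0.11 to 3.50. Contig04346, a subunit of the Smc5/6 complex that keeps chromosomes intact, had even values, 1.22, 1.44, 1.10 and 1.13 over black olives and 0.47, 0.10, 0.33 and 0.17 over the diet. Contig01372, the nuclear protein p8, a stress-induced protein in mammals, was uneven instead. Its black olive level was 15.14, 13.40, 12.65 and 14.86, with 14.79 to 15.92 on the diet, so pools 2 and 3 were low while pools 1 and 4 lay within the diet range. The other contigs of the list, contig00297 and contig05996, were both called higher in green than in black olives by limma, with adjusted p = 0.0146 and 0.00151. In contig00297 no spot was above background in the black olive pools, so the size of its difference is uncertain.

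Light and odour sensing gave 2 members of 6 contigs, both described as partial rhodopsin, the light-sensing receptor of photoreceptor cells. The ratios of contig08203 were 1.10, 1.39, 2.07 and 1.43 over black olives and -0.29, 0.65, 0.62 and 0.77 over the diet. Those of contig04859 were 1.24, 1.41, 1.79 and 1.34 over black olives and 0.02, 0.65, 0.66 and 0.76 over the diet. Both were at the top of the range that the rule allowed against the diet, and neither was called for black olives against the diet. A further opsin, contig03383 (rhodopsin 3), went the other way and was called lower in green than in black olives (-1.18, SE 0.14, adjusted p = 0.00146, limma), and arrestin (contig00428), which switches rhodopsin off, was called higher (1.03, SE 0.16, adjusted p = 0.00392). Contig07104 (odorant-binding protein 56h) was higher in green than in black olives by 1.01, with -0.06 against the diet. It was called lower in black olives than on the diet (-1.07, SE 0.14, adjusted p = 0.00841, limma). Its scanner ratio over black olives, 0.98, fell just short of the rule. Contig07577 (odorant binding protein 8a) was called higher in green olives than in black olives (3.37) and than on the diet (2.37).

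Digestive enzymes and peritrophins, which line the gut, held 11 listed contigs. All were called higher in green than in black olives, beside 1.74% of all contigs. Being called in the study was mostly what gave a contig a description and so a place on the list. A single contig was a member, contig11758 (cathepsin K, a cysteine protease of lysosomes). Its ratios were 1.15, 1.80, 1.54 and 1.77 over black olives and 0.17, 0.33, -0.44 and 0.40 over the diet, and its black olive signal was well above background on 3 arrays. The scanner's own ratio, 3.05, was much higher than the normalized mean of 1.56. Of the 10 others, 2 were called higher in green olives than on the diet and limma and treat called 0 for black olives against the diet, where 7 had an unadjusted p under 0.05. Digestive enzymes that the rule took out are not in these counts. Of the 11 contigs taken out, 5 had met its limits. Among the 11 was contig04367 (midgut-specific serine protease 2), with 1.74 over black olives and 0.18 over the diet. It was called lower in black olives than on the diet (-1.57, SE 0.14, adjusted p = 0.00167, limma). The 7 contigs of transporters, esterases and glycosyltransferases gave 1 member, contig01323 (core 1 galactosyltransferase, which builds sugar chains on secreted proteins), with 0.97, 1.40, 0.55 and 1.24 over black olives and -0.21, -0.27, 0.01 and 0.45 over the diet. Heat shock proteins held no member. Of their 10 contigs, 8 were called higher in green than in black olives and 3 of these also higher than on the diet, and limma and treat called 0 for black olives against the diet, where 3 had an unadjusted p under 0.05. Among 3 alcohol dehydrogenases none was a member, and contig02029 was called lower in black olives than on the diet (-1.44, SE 0.19, adjusted p = 0.00935, limma) and also lower in green olives than on the diet (-1.12, SE 0.14, adjusted p = 0.00362).

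A few more members are named after their values were seen. Contig06118 (ADP-ribosylation factor, a small GTPase of vesicle traffic) had 1.48, 2.97, 1.58 and 1.72 over black olives and 0.60, 0.22, 0.16 and 0.66 over the diet. Contig04780 (3-oxoacyl-acyl-carrier-protein reductase, an enzyme of fatty acid synthesis) had 1.82, 1.62, 1.44 and 1.83 over black olives and -0.59, -0.44, -0.34 and 0.41 over the diet. In neither did the groups overlap. Contig10629, described as clot, which takes part in making red eye pigment in *Drosophila*, was the most even of the contigs named here, at 0.93 to 1.03 over black olives and -0.43 to -0.06 over the diet. In contig02256 (hexosaminidase, which trims sugar chains) the ratios were 0.69 to 1.25 over black olives and -0.61 to -0.06 over the diet. The reverse strand of contig08136, with no description, gave 1.70, 1.72, 2.14 and 2.06 over black olives and 0.27, 0.66, 0.19 and 0.61 over the diet. Of the cytochrome P450 sequences on the array, boCYP4AC1-4 was a member, but its ratios over black olives (0.96, 1.59, -0.01 and 0.24) overlapped those over the diet (0.96, -0.48, -0.09 and 0.15).

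The members were spread widely between pools of a regime. The median SD of the ratio was 0.41 over the arrays with black olive larvae and 0.35 over those with diet larvae, against 0.21 and 0.17 in the detected contigs. An SD above 1 on at least one set of arrays was found in 27 members (23.9%), against 3.53% of the detected contigs, and 29 members had an SD under 0.3 on both sets. The black olive level was lowest in pool 2 in 67 members (59.3%), in pool 3 in 25, in pool 4 in 15 and in pool 1 in 6. In the detected contigs, pool 2 was the lowest in 29.0% and pool 1 in 31.7%. The rule averages over the 4 pools, and its part in these counts was not tested. All 4 ratios over black olives were above 0 in 96 members and above 1 in 34. With the array of black pool 2 left out, the mean ratio of 56 members was at least 1, against 77 with it, and that of 3 members was below 0.

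In a few members the pools differed so much that a mean says little. Contig07544 had ratios of 1.35, 6.80, -2.60 and 1.28 over black olives and 3.90, -5.26, 0.87 and 1.18 over the diet. Its green olive level was 15.21, 16.05, 10.24 and 14.58 on the arrays with black olive larvae and 16.12, 10.38, 15.15 and 14.55 on those with diet larvae. Its black olive level was 13.86, 9.25, 12.83 and 13.30 and its diet level 12.23, 15.65, 14.28 and 13.37. A very low level thus occurred in a green olive pool and in a black olive pool. Nearly the same 4 green olive levels came back on both sets of arrays, mostly under other replicate numbers. Contig05881 had nearly the same pattern, with ratios of 1.31, 6.72, -2.26 and 1.77 over black olives and 4.00, -5.10, 0.99 and 2.00 over the diet. A probe set for a sequence taken from the NCBI database, which has no description here, gave 1.25, 6.91, -2.70 and 1.26, and 3.94, -5.49, 0.79 and 1.03. In contig02653 the ratios were -0.40, 6.63, -0.89 and -0.36 over black olives and 4.15, -3.67, -0.60 and 0.13 over the diet, and in contig04531 0.20, 5.83, -0.24 and -0.50, and 2.41, -3.79, 0.58 and -0.47. These 5 were named after their values were seen, and more than a single array decided their membership. With each of the 8 arrays left out in turn, contig04531 met the rule 4 times. Contig05881, contig07544, contig02653 and the NCBI sequence met it 5 times. On the array of black pool 2, contig07544 joined a green olive level of 16.05 with a black olive level of 9.25. With that array left out, the mean ratio over black olives was -0.55 in contig02653, -0.18 in contig04531 and -0.06 in the NCBI sequence. The black over diet difference of contig05881 and contig07544 then turned positive, at 0.20 and 0.16. It also turned positive in these without diet replicate 2, at 0.45 and 0.27.

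**Figure D4:**
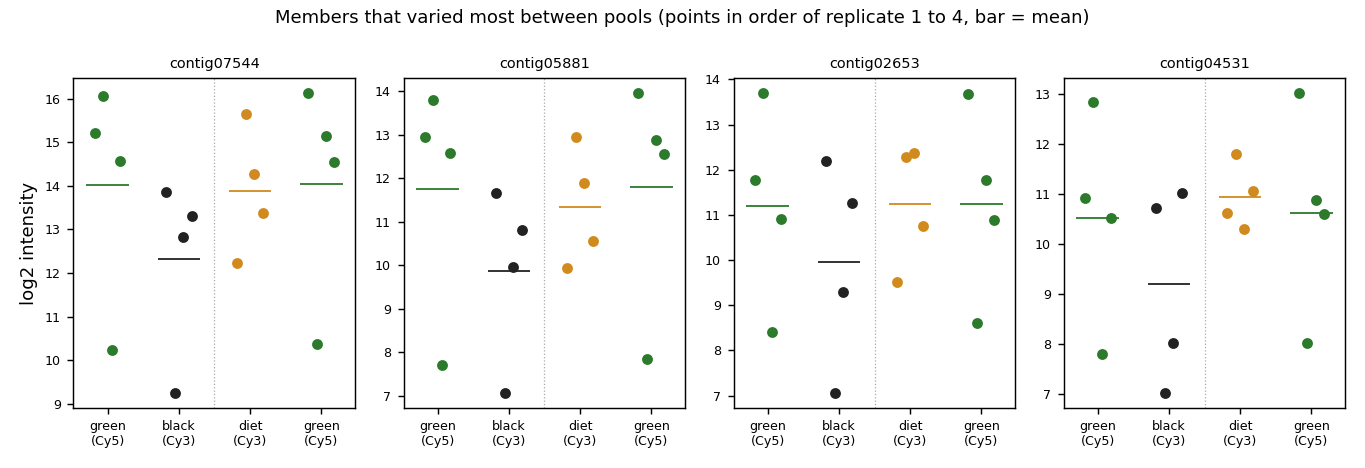
Normalized log2 intensity (y axis) of 4 members with the widest spread between pools in the 16 channels, with points for replicates 1 to 4 from left to right and a bar for their mean. In contig07544 a green olive pool lies at 10.24 and 10.38 on both sets of arrays while the other green olive pools lie at 14.55 or above, and black pool 2 lies at 9.25.

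For 56 members the array also had probes for the opposite strand. In 18 of these the other strand was a member too, which makes 9 pairs, and in 38 it was not. In 32 of the 38 the green olive signal of the other strand was above background in under 50% of its spots, in 20 of them in no spot, and their green over black ratios lay between -0.21 and 0.24. At such a signal these ratios do not show whether the other strand differed. In the pairs the rule fixed the sign on both strands, and the mean ratios were 1.90 and 1.21 in contig08136 (reverse and forward strand), 1.61 and 1.24 in contig05028, 1.59 and 1.47 in contig10243, and 1.53 and 1.25 in contig13671 (forward and reverse). Of the 6 other strands that were bright but not members, the forward strand of contig08842 had a mean ratio of 2.15 over black olives and 0.68 over the diet, and the reverse strand of contig11564 had 2.15 over black olives and -0.92 over the diet. Both failed the limit on the diet ratio, and their partners among the members had small ratios, 0.68 and 0.47. Signal from the opposite strand was not separated from that of the member, so a dim member beside a bright partner is uncertain.

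**Figure D5:**
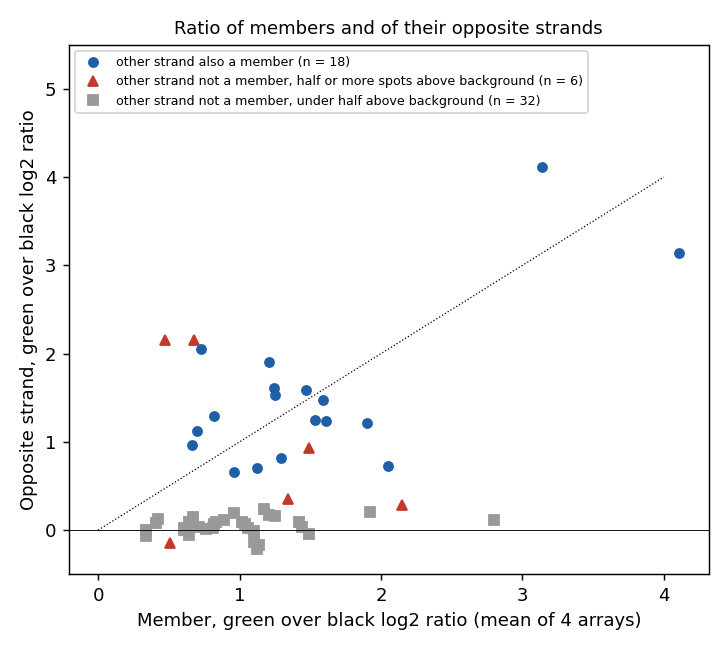
Mean green over black log2 ratio of 56 members (x axis) against that of the opposite strand of the same contig (y axis), each point a member; the dotted line marks equal ratios. The 32 dim other strands lie between -0.21 and 0.24, and the 18 points of the pairs lie at 0.66 or above on both axes.

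The probes of a member mostly told the same story. Apart from 6 members with a single probe, the mean ratio over black olives was above 0 in every probe in 104 members, and the gap between the highest and the lowest probe had a median of 0.26 and a maximum of 3.39. Just inside the limit on the scanner's ratio lay contig07861 (1.001, with -0.131 over the diet) and contig12660 (1.002 and -0.257), and just outside lay contig06015 (0.999 and -0.449) and contig03753 (0.993 and 0.247). After normalization contig12660 had ratios of only 0.29, 0.30, 0.35 and 0.69 over black olives, and contig07861 had 1.16, 1.40, -0.05 and 0.72 over black olives and 1.08, -2.26, 0.43 and 0.49 over the diet.

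Across the whole array, 60.6 to 64.1% of spots were well above background in Cy5 and 56.9 to 67.2% in Cy3. Of 30 contigs of general cell functions, 0 were members and 1 was called for green against black olives. Lists for tissues that whole larvae hold were set beside the result. The summed Cy3 intensity of 3 male germ line contigs was 401 to 476 in the black olive pools and 490 to 1101 in the diet pools. All 3 were called higher in green than in black olives, and 2 of these were among the contigs that the rule took out. In contig04956 no spot was above background in the black olive pools, so part of these low sums is at background level. For 4 muscle contigs the sums were 136650 to 178538 and 177119 to 212652, and 2 of 4 were called lower in green than in black olives. For the 4 photoreceptor contigs, which include both rhodopsin members, they were 2244 to 3006 and 3945 to 5413, and for 5 midgut contigs 72627 to 114102 and 78346 to 104741. The sums of 4 contigs listed as viral or bacterial were 12045 to 22423 and 2730 to 4872, and these contigs did not move together. The description of contig04633 among them names no virus or bacterium, and its origin was not tested. Contig04633 (leucine rich protein) was higher in black olives than on the diet by 3.97 (SE 0.21, adjusted p = 0.000233, limma), whereas contig00002 (nonstructural polyprotein), whose signal was at background level in all 4 black olive pools, was called lower (adjusted p = 0.00139). The part of tissue makeup in the low level of the members was not tested.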

How the data were processed

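The arrays were 8 two-colour Agilent arrays on a single slide, with pooled larvae of the 3 feeding regimes. For each array, the file deposited by the authors is the output of the scanner software, with a median intensity for every spot and its local background in both channels. It also gives a processed intensity, corrected by Feature Extraction for background and dye, and the log10 ratio of processed Cy5 to processed Cy3. The deposited value table gives these log10 ratios again, within 0.005. The ratio was exactly 0 in 18.3 to 25.6% of spots. The members were chosen on these ratios, and both the members and the gene lists were chosen with earlier results of these data known. The flags of Feature Extraction (other) mark spots above background and outliers.

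Following the study's methods, median intensities were corrected in limma 3.58.1 (R 4.3.3) by normexp (offset 50), then normalized by loess within and Aquantile between arrays, and fitted with lmFit and eBayes. The 1319 control spots were dropped, and outlier spots (46 to 128 per array) got no weight. Spots were averaged to probes and probes to contigs. A single fit covered all 8 arrays, with a coefficient per set of 4 arrays and Benjamini-Hochberg adjustment over 20516 contigs. Calls needed an adjusted p under 0.05 and an absolute log2 fold change over 1. The alternatives covered background correction, normalization, averaging, filters, treat, the replicate block, the slide row and each array left out. The limma fit was tested on simulated contig ratios with independent noise. Background correction, normalization, averaging, the member rule and shared green olive pools were not part of that test. The number of arrays limits the precision.

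Contigs were named by a rule: up to 5 members of each list with the largest scanner ratio, the 5 undescribed members with the largest ratio, their opposite strands, and those at the edge of the rule. Descriptions are those of the study's lists. Sequences and genome coordinates of the contigs were not used here. The p-value of a single member is not printed, since the rule used every comparison. Counts of members that were called, or had an unadjusted p under 0.05, describe the choice.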

Additional observations from a re-analysis of the deposited data

Results flagged for a closer look

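In most of the members named above, the 4 ratios of a set of arrays were examined for a value far from the other 3, by Dixon's test at its 95% critical value. Some that were named later, such as contig10629, contig02256, contig13671 and boCYP4AC1-4, were not examined. This gave 8 flags in 78 sets of 4. Chance alone flags about 5% of separate sets, but these sets share arrays and several contigs moved together. The number of flags was therefore not tested against that share. Among the myo-inositol oxygenase contigs, the green over diet ratio of replicate 4 stood apart in contig08383 (0.61, the others -0.34 to -0.18) and in contig11233 (0.32, the others -0.38 to -0.26). Both rhodopsin contigs had a low green over diet ratio in replicate 1, with 0.02 in contig04859 (the others 0.65 to 0.76) and -0.29 in contig08203 (the others 0.62 to 0.77). On the arrays with black olive larvae, replicate 2 stood apart in contig04531 (5.83, the others -0.50 to 0.20), in contig02653 (6.63, the others -0.89 to -0.36) and in contig06118 (2.97, the others 1.48 to 1.72). In contig12660, at the edge of the rule, replicate 4 stood apart (0.69, the others 0.29 to 0.35). What set these arrays apart was not tested.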

How the results depend on the processing

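Alternatives were set beside the values above for the counts of calls, the median over members and the number of members, and 174 of 199 recomputed values stayed close (a count within 1.5 times, a median within the spread between replicates). Values that did not are given here, and the cause was not tested. Some of the recomputed values could move little or not at all, so the count of those that stayed close overstates their stability. The members called for green olives against the diet were 0 under every alternative, since the rule limits that ratio. A median over members stays the same where an alternative changes only the test or leaves out an array of the other comparison. With the processed intensities, limma called 1016 contigs for green against black olives, 827 for green olives against artificial diet and 345 for black olives against artificial diet, in place of 462, 216 and 192, and 961 and 613 for the first and the second with the deposited value table. The median green over black ratio of the members was 1.52 under both, and the black minus diet median was -1.39 with the value table. Limma's treat, which tests against the threshold itself, called 19, 38 and 17 contigs, among them 8 members for green against black olives and 4 for black olives against the diet. With the slide row added to the model, 122 contigs and 24 members were called for black olives against the diet, and the difference of contig02653 was 0.68. The rule found 74 members with normexp, loess and Aquantile ratios, 112 with the median over spots (84 shared), 87 with a signal above background in all spots (all of them members) and 113, the same contigs, with outlier spots left out or with the value table.

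Replicate numbers did not pair the arrays, since the deviations of same-numbered arrays correlated at -0.35, -0.73, -0.13 and 0.46. Other pairs correlated positively, with 0.79 for black replicate 2 and diet replicate 1, 0.48 for 3 and 2, 0.335 for 1 and 2 and 0.326 for 1 and 3. The labels give no such pairing. The green olive levels of contig07544 recurred with black replicates 1, 2, 3 and 4 beside diet replicates 3, 1, 2 and 4. No fit used these pairs, and apart from the replicate block every fit treated the green olive pools of both sets as separate. The calls thus take no account of shared green olive pools, and whether the pools were shared was not tested. With the replicate number as a block, 410, 120 and 34 contigs were called, and 49 and 4 members in the comparisons with black olives. This block mostly joins arrays that did not correlate positively, so it does not model shared green olive pools.

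The 5 myo-inositol oxygenase contigs were called for green against black olives under every alternative except treat, which called 3. For black olives against the diet 3 were called by treat, 4 with the slide row or without diet replicate 1 or 3, 0 with the replicate block, and 5 under the other alternatives. The rule chose these contigs on the same comparisons, so the counts describe the choice and are no separate support.

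With each array left out in turn, the rule found 102 to 157 contigs, and 46 members met it every time. The calls were 393 to 536 contigs and 49 to 65 members for green against black olives, 129 (without diet replicate 4) to 235 contigs for green olives against the diet, and 118 to 206 contigs and 24 to 41 members for black olives against the diet, with the lowest counts without diet replicate 3, and 25 members without diet replicate 1. The median green over black ratio was 1.0 to 1.33, lowest without black replicate 2, and the black minus diet median -1.25 to -1.01. The green over black ratio was -0.18 to 1.93 in contig04531, -0.55 to 1.96 in contig02653 and -0.06 to 3.14 in the NCBI sequence, lowest without black replicate 2. The black minus diet difference was -2.79 to 0.45 in contig05881, -2.97 to 0.27 in contig07544, -2.63 to 0.55 in contig02653 and -3.07 to 0.24 in the NCBI sequence.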
